A study of Mus musculus with 78 samples.

Results

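The genes described here are 9 mouse paralogues of the NLRP family with a known place in the oocyte: Nlrp4a, Nlrp4b, Nlrp4d, Nlrp4e, Nlrp4g, Nlrp9a, Nlrp9b, Nlrp9c and Nlrp14. They were chosen by symbol, and the rows with their Entrez identifiers were taken from the gene tables of 4-cell and 8-cell blastomeres, which list 15218 and 15342 genes. Of the 9, 8 are listed in both tables. Nlrp4d, annotated as a pseudogene in RefSeq, is listed in neither, so no level is given for it.

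The study, called Rainbow-seq, sequenced single blastomeres of mouse embryos with Smart-seq2, a full-length RNA-seq protocol. Each embryo carried 1 copy of the Brainbow 2.1 cassette at the Gt(ROSA)26Sor locus, driven by the CAG promoter, and 1 copy of the CAG-cre/Esr1* transgene, whose product is a tamoxifen-inducible Cre recombinase. At the 2-cell stage, all embryos of both stages were given 4-hydroxytamoxifen in KSOM medium for 2 hours and were then cultured in vitro. By the paper's methods this was 46 hours after the second hormone injection of the superovulated mothers, whereas its Results give an earlier time. The tables hold 24 blastomeres of the 4-cell stage and 26 of the 8-cell stage, and no column name matches the label of a single embryo or blastomere, so each stage counted as a single sample. There was no group without the cassette, Cre or tamoxifen, and the stages came from different embryos, so that stage and embryos cannot be told apart. No replicates, errors between embryos or p-values are therefore given, and every comparison between the stages compares these blastomeres only. Columns were not assigned to embryos by their order or sequencing depth.

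NLRP proteins are built from an N-terminal pyrin domain, a NACHT domain that binds nucleotides through a P-loop, and leucine-rich repeats. Some members, such as NLRP3, form inflammasomes in immune cells, whereas rodents carry an expanded set that is expressed mainly in oocytes and passed to the embryo as maternal RNA and protein. Much maternal RNA is degraded around the activation of the embryonic genome, which in the mouse has its major wave at the 2-cell stage. NLRP14 is a maternal factor needed for early embryonic development, while individual NLRP4 and NLRP9 copies in the mouse are less well understood.

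In the RefSeq annotation of GRCm38, 8 of the genes lie on chromosome 7 and Nlrp4g lies on chromosome 9. Nlrp9c (chr7:26364691-26403700, minus strand), Nlrp4a (chr7:26435113-26476142, plus strand) and Nlrp9a (chr7:26535023-26574148, plus strand) stand next to each other and were the only protein-coding genes in that 209458-base block. Nlrp4e (chr7:23301192-23362277, plus strand) is 23611 bases from Nlrp5, another oocyte gene of the family. Nlrp9b (chr7:19991393-20062942), Nlrp4b (chr7:10687793-10730168) and Nlrp14 (chr7:107113455-107198103), all on the plus strand, lie apart from these. The pseudogene Nlrp4d covers chr7:10364111-10388992 on the minus strand, and Nlrp4g covers chr9:124348831-124356974 on the plus strand.

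The paralogues are close copies. Over aligned coding bases, Nlrp9a and Nlrp9c were 87.5% identical, Nlrp9a and Nlrp9b 83.5%, Nlrp4a and Nlrp4e 85.8%, and Nlrp4e and Nlrp4g 83.5%. The nearest coding sequence to Nlrp4b was that of Nlrp4e, at 78.8%. Nlrp14 stood apart, with 51.5% to its nearest member, Nlrp4a. The windows below show the reading frame around the P-loop (Walker A motif), the part of the NACHT domain that holds the phosphates of the nucleotide, for the 7 genes in which the motif was found. They are shown because they let a reader see how the copies differ at the base level. Each window has 90 bases of GRCm38 chromosome 7, 5′ to 3′ on the gene's strand, and the capitals mark the 8 codons of the motif.
Nlrp9a: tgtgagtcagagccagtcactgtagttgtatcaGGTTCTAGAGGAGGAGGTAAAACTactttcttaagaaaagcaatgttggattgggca
Nlrp9b: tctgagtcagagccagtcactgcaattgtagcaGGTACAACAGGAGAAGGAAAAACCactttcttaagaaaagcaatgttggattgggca
Nlrp9c: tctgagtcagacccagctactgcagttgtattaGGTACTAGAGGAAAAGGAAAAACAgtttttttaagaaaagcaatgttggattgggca
Nlrp4a: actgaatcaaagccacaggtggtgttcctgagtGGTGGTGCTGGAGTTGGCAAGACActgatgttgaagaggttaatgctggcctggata
Nlrp4b: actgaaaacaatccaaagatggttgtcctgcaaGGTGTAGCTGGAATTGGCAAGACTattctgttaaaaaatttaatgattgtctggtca
Nlrp4e: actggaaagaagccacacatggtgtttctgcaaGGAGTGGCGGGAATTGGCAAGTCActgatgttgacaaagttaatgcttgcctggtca
Nlrp14: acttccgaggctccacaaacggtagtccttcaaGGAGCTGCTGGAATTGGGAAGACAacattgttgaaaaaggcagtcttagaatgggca
The Nlrp9 windows differed from each other at 10 to 14 of 90 bases. Nlrp9c differed from Nlrp9a at 14 bases, of which 5 were in the P-loop codons, and from Nlrp4a at 45. The windows lie at chr7:26557370-26557459 (Nlrp9a), chr7:20023251-20023340 (Nlrp9b), chr7:26385652-26385741 (Nlrp9c, minus strand), chr7:26449396-26449485 (Nlrp4a), chr7:10714283-10714372 (Nlrp4b), chr7:23320516-23320605 (Nlrp4e) and chr7:107181823-107181912 (Nlrp14). No such motif was found in the Nlrp4g coding model, which is shorter than the others with 2103 coding bases.

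Because only uniquely aligned reads were counted, copies this alike could lose reads. Every 100-base window inside the exons was therefore looked up in the assembled chromosomes. Found exactly once were 99.4% of the Nlrp9c windows, 98.7% of those of Nlrp9a, 98.2% of those of Nlrp9b and 100.0% of those of Nlrp4a, Nlrp4b, Nlrp4g and Nlrp14. Nlrp4e was the exception, with 82.5% found once and up to 7 copies of a window, so its values may be too low. Exons shorter than 100 bases, windows across exon junctions and unplaced scaffolds were not covered, and reads with mismatches were not modelled.

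The promoters of Nlrp9a and Nlrp9c were also close copies where they aligned. Between the start-site windows of RefSeq (GRCm38.p6), which run from 250 bases before the transcript start to 50 after it, 96.4% of 253 aligned bases were identical, with 94 gap positions. Each holds the motif CCAAT 3 times on its own strand, marked here by capitals. Of 32851 mouse promoter windows of this length, 37.4% held CCAAT on either strand (CCAAT or ATTGG) at least once and 3.37% held it at least 3 times. The windows are chr7:26534773-26535072 on the plus strand for Nlrp9a and chr7:26403651-26403950 on the minus strand for Nlrp9c, and are shown because the levels of these neighbours differed widely.
Nlrp9a: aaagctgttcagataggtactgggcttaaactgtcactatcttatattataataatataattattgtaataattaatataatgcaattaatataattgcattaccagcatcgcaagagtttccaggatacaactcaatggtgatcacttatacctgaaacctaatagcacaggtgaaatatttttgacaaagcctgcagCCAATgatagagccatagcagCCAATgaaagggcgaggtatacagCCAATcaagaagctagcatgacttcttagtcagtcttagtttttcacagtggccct
Nlrp9c: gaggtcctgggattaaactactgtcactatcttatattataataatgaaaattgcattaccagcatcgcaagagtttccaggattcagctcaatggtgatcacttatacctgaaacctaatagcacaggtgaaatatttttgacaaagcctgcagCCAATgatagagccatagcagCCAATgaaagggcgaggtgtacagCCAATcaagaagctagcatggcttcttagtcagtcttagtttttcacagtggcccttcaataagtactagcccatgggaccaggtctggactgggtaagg
The windows of Nlrp9b and of the first start site of Nlrp4a hold no CCAAT, that of Nlrp4e holds 1 ATTGG, the second start site of Nlrp4a 1 CCAAT, and both start sites of Nlrp4b 2. A match is a run of letters and not evidence of a bound factor. Windows of Nlrp4d, Nlrp4g and Nlrp14 were not used here.

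Levels are FPKM, fragments per kilobase of exon and per M of fragments (M for mega), so that genes of different length can be set side by side. A gene was called above threshold in a blastomere at an FPKM above 1. The low values were near whole multiples of a smallest step, from which 6.87 to 16.9 M fragments (median 13.4) were estimated behind each 4-cell blastomere and 2.34 to 21.8 M (median 17.2) behind each 8-cell blastomere. For Nlrp9c, an FPKM of 1 stood for about 22.5 to 55.3 fragments at the 4-cell stage and for about 7.66 to 71.3 at the 8-cell stage. These numbers are approximate, since the exon length used did not turn every low Nlrp9c value into a whole fragment. Blastomeres with fewer than 0.75 times the stage's median number of genes above FPKM 1 are called gene-poor. There were 4 of these at the 4-cell stage (3009 to 5336 genes, stage median 7155) and 3 at the 8-cell stage (3548 to 4963 genes, stage median 6773). In addition, 5 columns of the 8-cell table are named NA. Among the blastomere markers, Dppa3 was above FPKM 1 in all 50 blastomeres, as were Klf5, Sall4 and Tead4, while Tfap2c was in 23 of 24 and 26 of 26 and Pou5f1 in 21 and 26. Nanog was above it in 18 and 21 blastomeres, Klf4 in 19 and 14, and Cdh1 in 16 and 20. Cdx2 was not listed at the 4-cell stage and was above FPKM 1 in 4 of 26 8-cell blastomeres, and Sox2 was listed at neither stage. Of 8 cumulus and granulosa genes, Amh (highest 1.64) and Has2 (highest 0.0279) were listed in both tables, Cyp19a1 was listed at the 4-cell stage with 2 blastomeres above FPKM 1 and a highest value of 3.06, and the other 5 were not listed. Of 5 sperm genes Prm1 and Prm2 were listed, with a summed level of at most 23.3 and a median of 0 at both stages. Of 5 blood and immune genes Cd68 was above FPKM 1 in 8 of 24 and 5 of 26 blastomeres, while Ptprc, Hba-a1 and Hbb-bs were not listed. The part of other cells in the paralogue levels was not tested.

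Nlrp9c had the highest median of the 8 genes at the 4-cell stage. Its 24 values lay between 0.0213 and 56.2 (median 8.25), and 23 of 24 blastomeres were above FPKM 1 (95.8%, exact 95% binomial interval 78.9 to 99.9). At the 8-cell stage its 26 values lay between 0 and 17.1 (median 0), and 5 of 26 were above FPKM 1 (19.2%, 6.55 to 39.4). Here and below, these intervals cover counting error only and take no account of blastomeres that share an embryo. The only 4-cell blastomere below the threshold held about 1 fragment of Nlrp9c, and the next lowest had an FPKM of 1.05. At the 8-cell stage 18 of 26 blastomeres were at 0, and the 5 above the threshold had 17.1, 8.58, 2.06, 1.65 and 1.14. The ranges of the stages overlapped, but the 4-cell median was exceeded in only 2 of 26 8-cell blastomeres.

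The difference between the stage medians of log2(FPKM + 1), taken as 8-cell minus 4-cell, was -3.18 for Nlrp9c. The mean FPKM was 12.7 in 4-cell and 1.22 in 8-cell blastomeres, a 10.4-fold difference. A single 8-cell blastomere, at 17.1, made up much of the second mean, which was 0.584 without it, and the fold was 8.84 to 21.7 with 1 blastomere left out. Without the gene-poor blastomeres the means were 9.44 and 1.37. The share of blastomeres above FPKM 1 differed by -76.6 percentage points, the largest drop among the 13041 genes that were listed in both tables and above FPKM 1 in at least 1 blastomere. Nlrp9c alone, or 0.00767% of these genes, had a drop of that size, and the next gene, Pxt1, was at -67.9 points. This ranking was made after the values were seen, and Nlrp9c also came 1st under both rescalings, without the columns named NA, without the gene-poor blastomeres and with any 1 blastomere left out. At a threshold of 0.1 Nlrp9c came 2nd, and at 5 it came 16th. The median estimated number of fragments was 13.4 M at the 4-cell and 17.2 M at the 8-cell stage, and the part of depth in the difference was not tested.

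**Figure D1:**
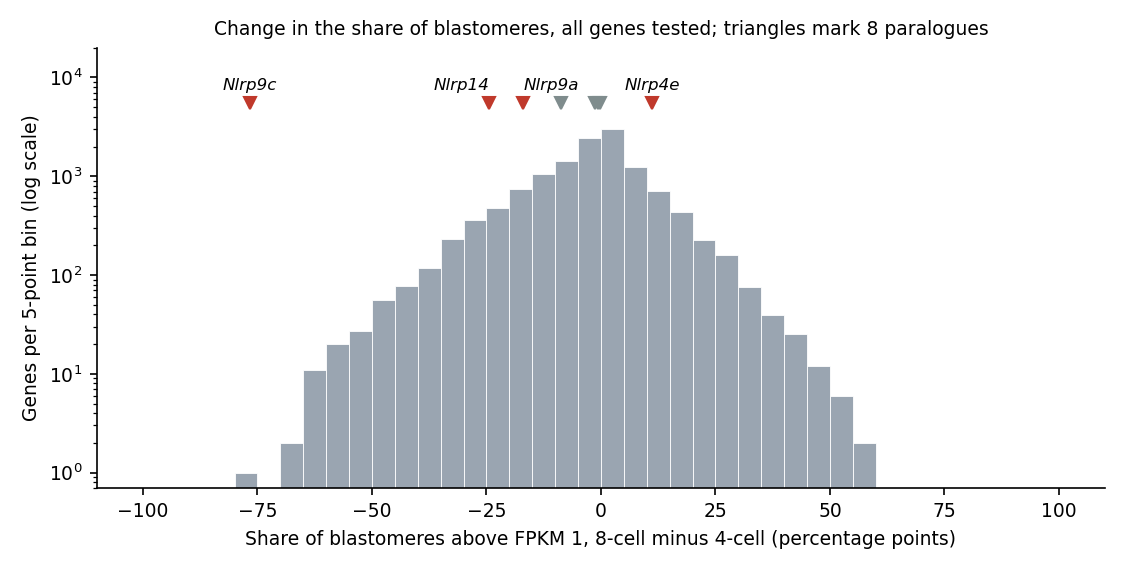
Histogram of the change in the share of blastomeres above FPKM 1, 8-cell minus 4-cell, in percentage points, for 13041 genes in 5-point bins on a log count axis. Red triangles mark Nlrp9c at -76.6, Nlrp14 at -24.4, Nlrp9a at -17.0 and Nlrp4e at 11.2, and grey triangles mark the other 4 listed paralogues between -8.65 and -0.321. The single gene in the leftmost filled bin is Nlrp9c.

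Nlrp9c also varied among the 4-cell blastomeres. Its highest values, 56.2 and 37.3, were in the gene-poor blastomeres with 3699 and 3009 genes, and another gene-poor blastomere, with 4939 genes, had 21.8. The lowest value was in the 4th gene-poor blastomere, with 5336 genes. Among the 20 other 4-cell blastomeres all were above FPKM 1, with a median of 6.01 and a highest value of 34.7. Across the 24 blastomeres the level was lower where more genes were above FPKM 1, with a Spearman correlation of -0.52 and a Pearson correlation of -0.50, given as a description of points that share depth and scaling. Without the 4 gene-poor blastomeres the Spearman correlation was -0.51 over 20. At the 8-cell stage it was 0.25 over 26. The part of library complexity in these levels was not tested.

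**Figure D2:**
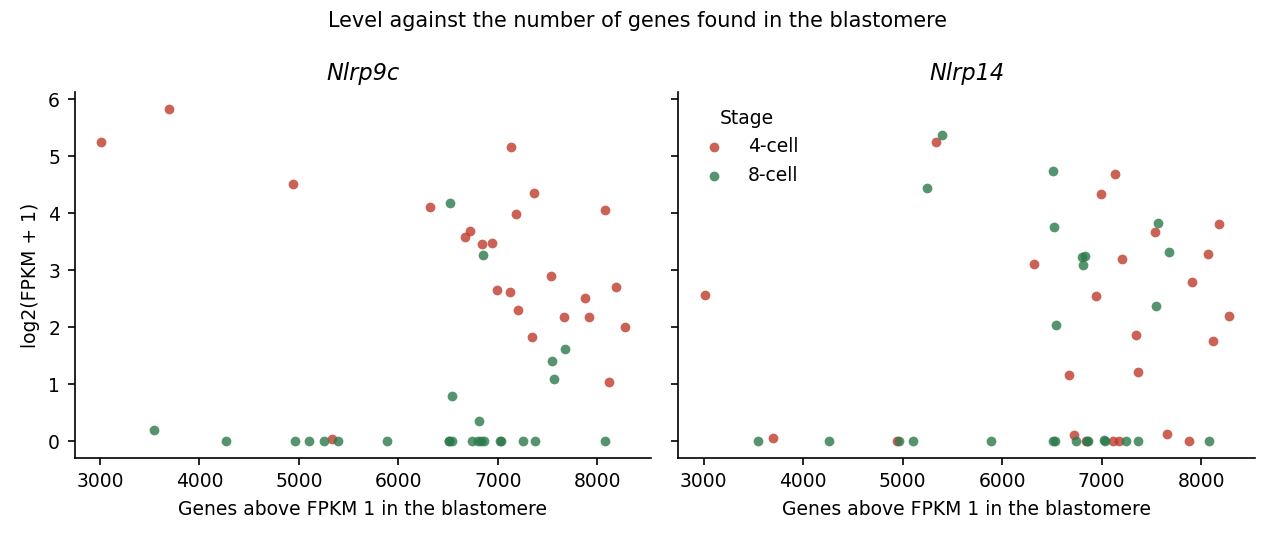
Level of Nlrp9c (left) and Nlrp14 (right) as log2(FPKM + 1) against the number of genes above FPKM 1, with 1 point per blastomere, 4-cell in red and 8-cell in green. For Nlrp9c the 4-cell points slope down to the right, with a Spearman correlation of -0.52, and most 8-cell points lie at 0. For Nlrp14 both stages hold points at 0 and points between 2 and 5 on the log2 scale across most of the range.

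Nlrp9a, the near copy of Nlrp9c in the same block, was low in most blastomeres. At the 4-cell stage its values lay between 0 and 13.3 (median 0), and 5 of 24 blastomeres were above FPKM 1 (20.8%, 7.13 to 42.2). At the 8-cell stage 1 of 26 was above it (3.85%, 0.0973 to 19.6), at 8.07, and 24 were at 0. The 5 higher 4-cell values were 13.3, 10.6, 5.76, 4.98 and 1.96, and 5 others stood for about 1 fragment each. The 5 blastomeres above FPKM 1 for Nlrp9a were also above it for Nlrp9c, as were 23 of 24 blastomeres in all. Across the 50 blastomeres, after each stage's median was subtracted, Nlrp9a and Nlrp9c had a Pearson correlation of -0.18 and a Spearman correlation of -0.04. The mean FPKM of Nlrp9a was 1.57 at the 4-cell stage and 0.311 at the 8-cell stage, where it rested on 1 blastomere.

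Nlrp9b, the third copy of this group, was above FPKM 1 in 2 of 24 and 2 of 26 blastomeres (8.33%, 1.03 to 27, and 7.69%, 0.946 to 25.1). The values were 4.07 and 3.55 at the 4-cell stage and 16.5 and 2.88 at the 8-cell stage, and all other blastomeres were at 0. The value of 16.5 was in a gene-poor blastomere. Of the 3 Nlrp9 genes, Nlrp9c was thus the only one with a median above 0, and only at the 4-cell stage.

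**Figure D3:**
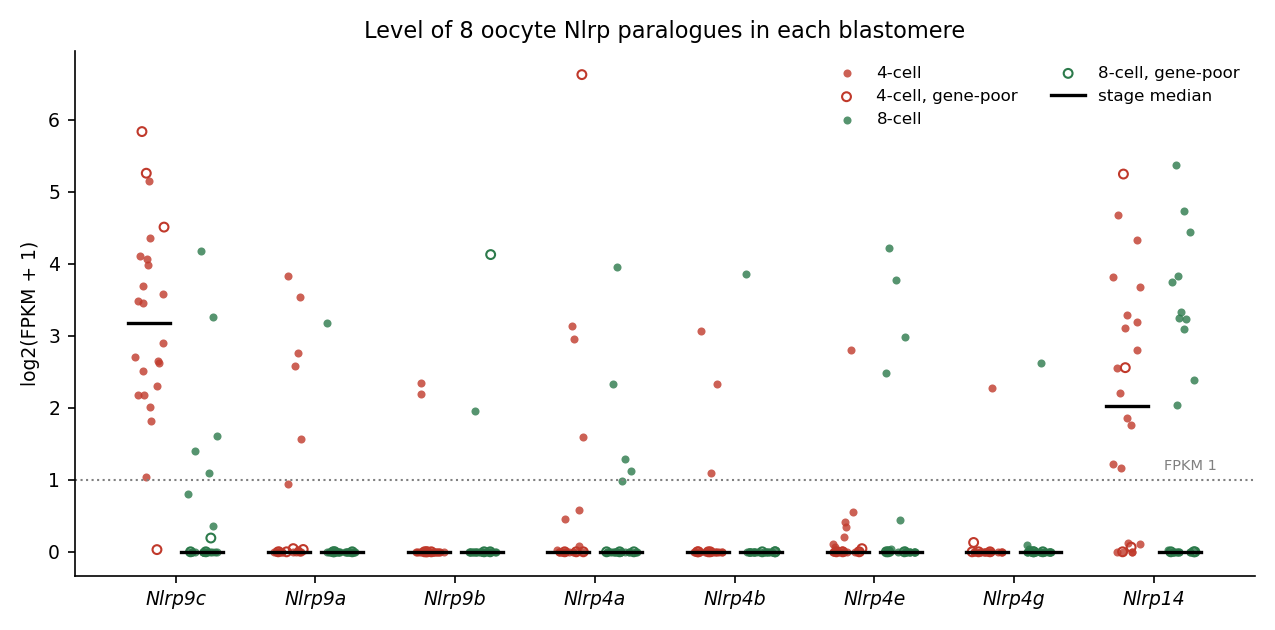
Level of each listed paralogue as log2(FPKM + 1), with 1 point per blastomere, 24 of the 4-cell stage in red and 26 of the 8-cell stage in green. Open circles are gene-poor blastomeres, black bars are stage medians, and the dotted line is FPKM 1. Medians above 0 are seen for Nlrp9c (3.18) and Nlrp14 (2.03), both at the 4-cell stage.

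Nlrp14 was the second gene with a 4-cell median above 0 and had the highest mean of the 8 genes at the 8-cell stage. Its 4-cell values lay between 0 and 37.0 (median 3.12), and 16 of 24 blastomeres were above FPKM 1 (66.7%, 44.7 to 84.4). Its 8-cell values lay between 0 and 40.6 (median 0), and 11 of 26 were above FPKM 1 (42.3%, 23.4 to 63.1). The intervals overlapped, and so did the ranges. The 8-cell values were split. In 14 of 26 blastomeres Nlrp14 was at 0, in 1 it stood for about 1 fragment, and the other 11 lay between 3.1 and 40.6. The highest 4-cell value, 37.0, was in the gene-poor blastomere that had the lowest Nlrp9c.

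The stage difference of Nlrp14 depended on how it was measured. The medians of log2(FPKM + 1) differed by -2.03, whereas the means of the same quantity differed by -0.47, and the mean FPKM was 6.56 in 4-cell and 5.91 in 8-cell blastomeres. In the 5 columns named NA all Nlrp14 values were 0. The column names do not show whether these 5 came from 1 embryo. Without them 11 of 21 8-cell blastomeres were above FPKM 1, and the difference of the medians was 0.00412. That 8-cell median was the value of 1 blastomere, at 3.1, and the next lower value was 0.0163. Nlrp9c was also at 0 in all 5 of these columns, and above FPKM 1 in 5 of the other 21. Nlrp14 and Nlrp9c shared 15 of the 24 4-cell blastomeres above FPKM 1, where Nlrp9c was above it in 23, and 4 of the 26 8-cell blastomeres. Their centred levels had a Pearson correlation of 0.07 over 50 blastomeres and of 0.21 over the 43 that were not gene-poor.

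The 4 listed Nlrp4 genes described here were each above FPKM 1 in at most 4 blastomeres of a stage. Nlrp4a was above FPKM 1 in 4 of 24 (16.7%, 4.74 to 37.4) and in 4 of 26 (15.4%, 4.36 to 34.9). Its 4-cell values above the threshold were 98.0, 7.76, 6.74 and 2.01, and its 8-cell values were 14.6, 4.04, 1.44 and 1.18. The value of 98.0, the highest of any paralogue here, was in the gene-poor blastomere with 3009 genes and set the 4-cell mean of 4.81. Without the gene-poor blastomeres the means of Nlrp4a were 0.872 and 0.966. The 8-cell values of 14.6 and 4.04 were in columns named NA, and without the 5 such columns the 8-cell mean was 0.171 in place of 0.854, with 2 of 21 blastomeres above FPKM 1 (9.52%). All 4 4-cell blastomeres with Nlrp4a above FPKM 1 were also above it for Nlrp14, which was above it in 16 of 24, and for Nlrp9c.

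Nlrp4b was above FPKM 1 in 3 of 24 blastomeres (12.5%, 2.66 to 32.4), at 7.42, 4.04 and 1.14, and in 1 of 26 (3.85%, 0.0973 to 19.6), at 13.5. In each other blastomere it was at 0. Its promoter windows were 77.0% and 78.4% identical to that of the second Nlrp4a start site, and 37.7% and 39.9% to that of the first. Its centred levels and those of Nlrp4a had a Pearson correlation of -0.08 and a Spearman correlation of 0.09 over 50 blastomeres.

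Nlrp4e had a larger share above FPKM 1 at the 8-cell stage. At a threshold of 0.1 its shares were 20.8% and 19.2%, which stand for the same number of blastomeres at each stage. It was above FPKM 1 in 1 of 24 4-cell blastomeres (4.17%, 0.105 to 21.1), at 5.99, and in 4 of 26 8-cell blastomeres (15.4%, 4.36 to 34.9), at 17.6, 12.7, 6.94 and 4.61. The intervals of the shares overlapped over most of their length. At the 4-cell stage 10 further blastomeres held it above 0 but below FPKM 1, from 0.0193 to 0.467, with the smallest values at 1 fragment. Its mean FPKM was 0.31 in 4-cell and 1.63 in 8-cell blastomeres, and 0.0625 and 0.985 without the highest blastomere of each stage.

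Nlrp4g was above FPKM 1 in 1 blastomere of each stage, at 3.86 and 5.16, and was otherwise at 0.094 or less. The 8-cell blastomere with 5.16 was among the columns named NA.

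**Figure D4:**
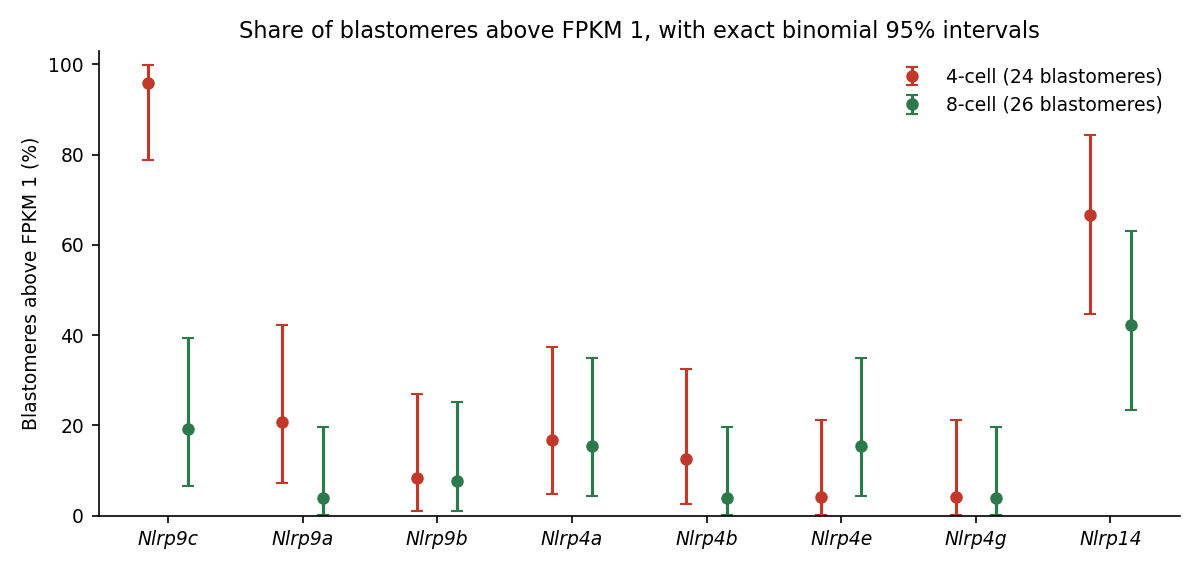
Share of blastomeres above FPKM 1 in percent for each listed paralogue, 4-cell (24 blastomeres, red) and 8-cell (26 blastomeres, green), with exact binomial 95% intervals that cover counting error only. The intervals of the stages do not overlap for Nlrp9c (78.9 to 99.9 against 6.55 to 39.4) and overlap for the other 7 genes.

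By median FPKM the 4-cell order was Nlrp9c, then Nlrp14, with the other 6 genes tied at 0. The interquartile ranges of Nlrp9c (3.84 to 15.8) and Nlrp14 (0.0711 to 8.32) overlapped, so these neighbours were not separated. Those of Nlrp9a (0 to 0.254) and Nlrp4a (0 to 0.136) lay below that of Nlrp9c and overlapped with that of Nlrp14. By mean FPKM the 4-cell order was Nlrp9c, Nlrp14, Nlrp4a, Nlrp9a, Nlrp4b, Nlrp9b, Nlrp4e and Nlrp4g. Single blastomeres decided parts of it. Without its highest blastomere Nlrp4a had a mean of 0.759 in place of 4.81, below Nlrp9a at 1.57, and in the same way Nlrp4e had 0.0625 and Nlrp4g 0.00409. At the 8-cell stage all medians were 0, and the order by mean was Nlrp14 (5.91), Nlrp4e (1.63), Nlrp9c (1.22), Nlrp4a, Nlrp9b, Nlrp4b, Nlrp9a and Nlrp4g (0.202). The means of Nlrp4b, Nlrp9a and Nlrp4g at that stage rested on 1 blastomere each, and that of Nlrp9b on 2. Without the columns named NA, Nlrp9c (1.51) was above Nlrp4e (1.41), and Nlrp4a (0.171) was below Nlrp9b (0.787), Nlrp4b (0.641) and Nlrp9a (0.385). In these named columns Nlrp9b, Nlrp4b and Nlrp9a were each above FPKM 1 in 1 blastomere. That of Nlrp9b, at 16.5, was gene-poor. Without it, and with the columns named NA kept, the 8-cell mean of Nlrp9b was 0.115, below that of Nlrp4g.

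Past a 2-fold difference of the stage medians, 2 of the 8 paralogues were lower at the 8-cell stage, Nlrp9c and Nlrp14, and 0 were higher. Of the 13041 genes, 10.1% were lower by that rule and 5.4% were higher, and the median difference was 0.00 for the paralogues and for the genes as a whole. With 6 of the 8 at a median of 0 in both stages, this rule could not call them. The 13041 genes also include genes with a median of 0 at both stages, and their number was not counted. By the share above FPKM 1, 7 of the 8 were lower at the 8-cell stage and 1 was higher, against 7087 lower and 5003 higher of the 13041 genes. The tally depended on the threshold. At 0.1 all 8 were lower and 0 higher, against 7369 lower and 4917 higher of 13427 genes. At 5 there were 5 lower, against 5743 lower and 5206 higher of 11755 genes, and 3 higher, Nlrp4e (4.17% and 11.5%), Nlrp4g and Nlrp9b (each 0% and 3.85%). For 3 of the 7 that were lower at FPKM 1, Nlrp4a, Nlrp4g and Nlrp9b, the difference at that threshold was under 1.3 percentage points. These had the same number of blastomeres above FPKM 1 at both stages. Their share was lower only because the 8-cell stage had more blastomeres. The same held at 0.1 for Nlrp4e, Nlrp4g and Nlrp9b, and at 5 for Nlrp4b and Nlrp14. Equal counts were scored in this way over all genes as well.

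Blastomeres differed in how many of the paralogues they held. At the 4-cell stage every blastomere had at least 1 of the 8 above FPKM 1. In 7 there was 1, in 6 there were 2, in 8 there were 3 and in 3 there were 4. At the 8-cell stage 9 of 26 blastomeres had none, 9 had 1, 4 had 2 and 4 had 3. The summed FPKM of the 8 genes lay between 4.79 and 140.0 at the 4-cell stage (median 19.9). In 8-cell blastomeres it lay between 0 and 41 (median 9.14), and 7 blastomeres were at 0 for all 8 genes. The ranges of the sums overlapped.

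**Figure D5:**
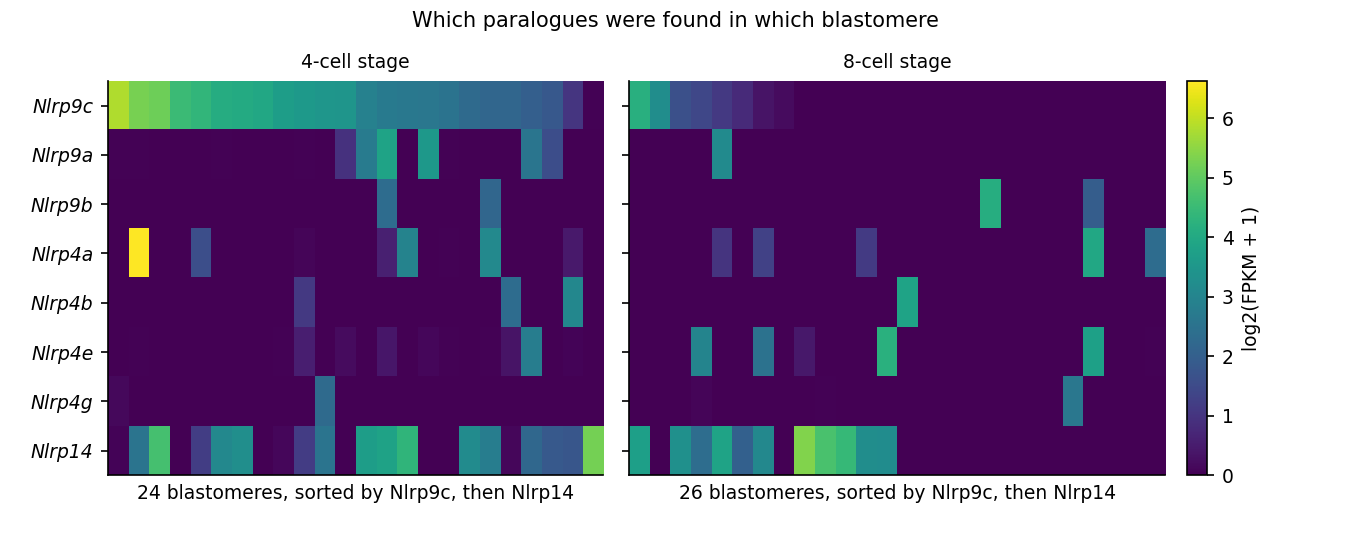
Level of the 8 listed paralogues (rows) as log2(FPKM + 1) in each blastomere (columns), sorted within each stage by Nlrp9c and then by Nlrp14. The Nlrp9c row is above FPKM 1, or 1 on this scale, in 23 of 24 4-cell and 5 of 26 8-cell blastomeres, and the Nlrp14 row in 16 and 11, while the other rows are above it in at most 5 blastomeres of a stage.

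Nlrp9b and Nlrp4b had no value above 0 and up to FPKM 1. Nlrp14 had 3 such values at the 4-cell stage and 1 at the 8-cell stage, against 16 and 11 above the threshold, whereas Nlrp4e had 10 and 4. The highest values stood for many fragments, such as about 2451 for Nlrp9c and 1888 for Nlrp14 at the 4-cell stage and 2458 for Nlrp14 at the 8-cell stage. Fragments made by amplification are not independent molecules, so the number of RNA copies behind these values is unknown.

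The genes whose levels were most like those of Nlrp9c and Nlrp14, the 2 members above FPKM 1 in at least 25 of the 50 blastomeres, were sought among 6513 genes that met the same rule. For Nlrp9c they were Zfc3h1, Fbxo45 and Fem1b, with Pearson correlations of 0.55, 0.52 and 0.51 over 50 blastomeres and Spearman correlations of 0.47, 0.44 and 0.41. Without the gene-poor blastomeres these Pearson values were 0.45, 0.45 and 0.40, and the genes came 4th, 6th and 26th. For Nlrp14 they were Nmb, Mlxip and Slc23a2, with Pearson correlations of 0.56, 0.55 and 0.52 and Spearman correlations of 0.43, 0.47 and 0.50. Without the gene-poor blastomeres the Pearson values were 0.53, 0.49 and 0.42, and the genes came 2nd, 6th and 18th. The correlations over 50 blastomeres are the highest of many, the points share depth and scaling, and none of these genes is a member of the family.

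Among the other oocyte genes of the family, Nlrp5, a core of the subcortical maternal complex, was above FPKM 1 in 17 of 24 and 9 of 26 blastomeres with medians of 5.06 and 0.122. Nlrp4c was above it in 14 and 12, with medians of 3.8 and 0.499. Both were lower at the 8-cell stage past 2-fold by median, 2 of the 4 genes in this list, against 10.1% of all genes. Nlrp4f was above FPKM 1 in 7 and 4, and Nlrp2 in 2 and 0. At the 4-cell stage Nlrp9c was thus above FPKM 1 in more blastomeres than any of the other 11 listed oocyte paralogues. It shared that breadth with 15.3% of the 15218 listed genes, which were above FPKM 1 in at least 23 of the 24.

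Among 5 genes for protein partners of NLRP5 in the subcortical maternal complex, Tle6 and Zbed3 were lower past 2-fold at the 8-cell stage, Khdc3 was higher, and Ooep and Padi6 were within 2-fold, where 10.1% of all genes were lower and 5.4% higher. Khdc3 had medians of 101.0 and 443.0 FPKM. Of 4 genes reported as partners or targets of NLRP14, none was past 2-fold in either direction, against the same 10.1% and 5.4%. Kpna2, an importin, was above FPKM 1 in all 50 blastomeres, with medians of 858.0 and 529.0. Uhrf1, a factor of maintenance DNA methylation, had medians of 1.48 and 2.36, Tbk1 of 0 and 0.222, and Slc8b1, a mitochondrial sodium-calcium exchanger, of 16 and 25.2.

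Of 14 oocyte and maternal markers, 13 were tested and 2 were lower past 2-fold, Gdf9 (medians 4.39 and 0) and Btg4 (11.6 and 0.114), and 0 were higher. That is 15.4%, against 10.1% of all 13041 genes, and 8 of the 13 had a median of 0 at both stages, so that the rule could not call them. Among these, Oosp1 was above FPKM 1 in 10 of 24 and 5 of 26 blastomeres, Bcl2l10 in 9 and 3, and Zp1 in 8 and 8. Zp3, a zona pellucida gene, had medians of 83.2 and 45.6 and was above FPKM 1 in 22 of 24 and 26 of 26 blastomeres. Of the 6 genes of the 2-cell burst, 5 were tested and 4 of these had a median of 0 at both stages, so that the 2-fold rule says little about them. Zscan4c was above FPKM 1 in 3 and 0 blastomeres, Zscan4d in 6 and 2, Zfp352 in 5 and 1, Tcstv1 in 3 and 3, and Tcstv3 in 2 and 7. Of 11 cleavage-stage markers, 9 were tested, Pou5f1 was higher past 2-fold (41.5 and 110.0) and Nanog lower (21.2 and 7.93), where 5.4% of all genes were higher and 10.1% lower.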

How the data were processed

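Single blastomeres were sequenced with Smart-seq2 and Nextera XT. Per the labels and the methods, the authors aligned the reads to mm10 with STAR 2.5.1b, kept uniquely aligned reads and counted them with HTSeq on Refseq genes, and they deposited FPKM values per gene and blastomere. The gene lengths and totals behind the FPKM values are not given in the sources used here. No column name matched a single sample, so each stage was 1 sample and no test was made.

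Entrez identifiers were matched to RefSeq (GRCm38.p6). The 9 paralogues and all gene lists (other oocyte Nlrp genes, immune NLR genes, inflammasome partners, partners of NLRP5 and NLRP14, and cell type markers) were chosen with earlier results of these data known, and each of the 9 paralogues is named, with a selection of genes from the lists. Stage differences are differences of medians of log2(FPKM + 1), called past 2-fold. On simulated data for 13041 genes, 200 of 200 genes changed 4-fold were recovered, all with a mean FPKM above 20, so this does not cover genes with a median of 0, as most of the paralogues had. Shares have Clopper-Pearson 95% intervals. Denominators came from the lowest 0.3 of the values of 8466 and 8589 genes with 1 curated transcript, of which at least 90.0% and 91.1% of low values lay within 0.1 of a whole fragment. For Nlrp4a and Nlrp4g the exon lengths differed from those behind the FPKM, so no fragments are given. For Nlrp9c, 1 of the 2 8-cell values of 0.5 to 30 fragments lay within 0.1 of a whole fragment. Its smallest value above 0 came out at 1.09 fragments at both stages, so its fragments are approximate. Sequences were aligned with mafft 7.526. Python 3.11.15, pandas 2.3.3 and scipy 1.17.1 were used. The alternatives were other thresholds, pseudocounts, means, scalings and filters, and leaving out blastomeres. The repeat tables were not used here.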

Additional observations from a re-analysis of the deposited data

How the results depend on the processing

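No paired analysis was possible because no column name gives an embryo or a replicate number. The count of paralogues past 2-fold was 2, and it was 1 with means in place of medians and 1 without the columns named NA, since Nlrp14 no longer passed. Over all genes 919 were lower and 620 higher of 13041 with means, and 1439 and 616 of 12967 without these columns, against 1316 and 704 of 13041. Without these columns the difference of Nlrp14 was 0.00412 in place of -2.03, so that the stage medians were nearly equal. With a pseudocount of 0.1 the differences were -6.35 for Nlrp9c and -4.99 for Nlrp14, in the same direction. At a threshold of 5, the 4-cell shares were 66.7% for Nlrp9c, 37.5% for Nlrp14, 0% for Nlrp9b and 0% for Nlrp4g, and the 8-cell share of Nlrp4a was 3.85%. Without gene-poor blastomeres the 4-cell share of Nlrp9c was 100.0%. Without the columns named NA the 8-cell share of Nlrp4g was 0%. With 1 blastomere left out, the 4-cell share of Nlrp9c was 95.7% to 100.0%, those of Nlrp4e and Nlrp4g at the 4-cell stage were 0% to 4.35%, and those of Nlrp4b, Nlrp4g and Nlrp9a at the 8-cell stage were 0% to 4.0%. By mean, Nlrp14 held place 1.0 at the 8-cell stage, against a tie at 4.5 by median. By fall in share, Nlrp9c held place 2 at a threshold of 0.1 and 16 at 5, and the number of paralogues with a larger 8-cell share was 0 at 0.1 (4917 of 13427 genes in all) and 3 at 5 (5206 of 11755), in place of 1. The fold of the mean of Nlrp9c was 8.84 to 21.7 with 1 blastomere left out. These last alternatives were chosen after seeing the data. The cause was not tested. A value near FPKM 1 rests on as few as about 7.66 fragments of Nlrp9c in the shallowest blastomere.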

Other observations

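The NLR genes better known from immune cells were mostly unlisted or rare. Of 17 such genes, 8 were listed in both tables and tested, 1 was lower past 2-fold at the 8-cell stage and 0 were higher. That is 12.5%, near the 10.1% of all 13041 genes, and 6 of the 8 had a median of 0 at both stages, so that the rule could not call them. The gene past 2-fold was Nlrp12, which was above FPKM 1 in 15 of 24 4-cell blastomeres and 10 of 26 8-cell blastomeres, with medians of 3.13 and 0. Its 4-cell share was thus 1 blastomere below that of Nlrp14. Ciita, the regulator of MHC class II genes, was above FPKM 1 in 11 and 7 blastomeres. Nlrp3 was above it in 2 and 1, with a highest value of 2.33.

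Of 10 inflammasome partners, 5 were listed in both tables, of which 4 had a median of 0 at both stages and could not be called by the 2-fold rule. Pycard, which encodes the adaptor ASC, was above FPKM 1 in 9 of 24 and 9 of 26 blastomeres. Txnip was above it in 5 and 0, Aim2 in 3 and 2, Gsdmd in 2 and 1, and Nek7 in 1 and 3. Casp1 was above it in 1 4-cell blastomere and is not listed at the 8-cell stage, and Casp4 likewise. Il18 is not listed at the 4-cell stage and was above FPKM 1 in 4 of 26 8-cell blastomeres, with a highest value of 15.8. Mefv is listed in neither table. Il1b is not listed at the 4-cell stage and reached 0.0384 at the 8-cell stage.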
